A study of Mus musculus with 6 samples.

Results

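Polycomb repressive complex 2 (PRC2) and the lysine demethylase Kdm6b act in opposite directions on lysine 27 of histone H3, and the mRNA of 10 genes of this pair of activities was followed in mouse liver tumour cell lines. The members were chosen by name, with no use of their values: the catalytic subunits Ezh1 and Ezh2, the other core subunits Eed, Suz12, Rbbp4 and Rbbp7, the accessory subunits Mtf2, Phf19 and Jarid2, and Kdm6b. All 10 were found among the 53465 genes of the count table, 1 row each, and all 10 were among the 11510 genes with enough counts to be tested. 6 cell lines were sequenced, 3 with the genotype Myc_Utx (lines 2A, 2B and 2D) and 3 with the genotype Myc_p53 (lines 1, 2 and 3). Utx is another name of Kdm6a, the close relative of Kdm6b that removes the same mark.

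Every line was grown from a liver tumour of a C57BL/6 mouse, and the study's methods describe young adult females at 8 weeks. In both groups hepatocytes had received a Myc transposon by hydrodynamic injection into the tail vein, and with it a plasmid for Cas9 and a guide RNA, which targeted Kdm6a in Myc_Utx and p53 in Myc_p53. Tumours were dissociated and the cells cultured, so the lines had been expanded before RNA was taken, and no line with Myc alone or with normal liver cells is among the samples. A difference between the groups can therefore belong to the loss of Kdm6a or to the loss of p53, and these cannot be told apart here. The methods call the lines of a group independent, so each was counted as 1 replicate. The p-values set the difference between groups against the spread between these lines. The Myc_Utx labels differ only in a final letter, and whether those lines share 1 mouse or 1 guide RNA is not stated.

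PRC2 places methyl groups on lysine 27 of histone H3, and the trimethylated form, H3K27me3, marks silent genes, many of them regulators of development. Ezh2 and Ezh1 are alternative catalytic subunits, with Ezh2 typical of dividing cells and Ezh1 of resting ones. Eed binds the methylated histone tail and stimulates the enzyme, Suz12 holds the complex together, and Rbbp4 and Rbbp7 are histone-binding proteins that also serve other chromatin complexes. Kdm6a and Kdm6b take the methyl groups off again, Kdm6a as part of the MLL3/MLL4 complexes.

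Values are TMM-normalized CPM, that is, counts scaled to a common library size that was corrected for composition. The libraries held 4656103 to 5473042 counts in Myc_Utx and 5370608 to 6937497 in Myc_p53 lines. Fold changes are log2 differences of Myc_Utx over Myc_p53 with their standard error (SE), from the quasi-likelihood F test of edgeR, and the adjusted p is the Benjamini-Hochberg value over all 11510 genes. An adjusted p under 0.05 was taken as a call. In the whole table of tested genes 14.7% were called, 6.99% as higher and 7.69% as lower in Myc_Utx, and in 42.0% the lines of the groups did not overlap. At an unadjusted p under 0.05 in the same test stood 4026 of the 11510 genes, 1916 higher and 2110 lower. Unadjusted counts below are to be read beside these. With library totals alone in place of TMM, 37.3% of the calls were of higher genes, against 47.6% here. RNA was taken from whole cultures, where fewer cells of a type and less RNA per cell cannot be told apart.

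Of the 10 members, Eed rose and Ezh1 and Phf19 fell in Myc_Utx lines, which is 1 higher and 2 lower against the 14.7% of all genes. Ezh2, the catalytic subunit of dividing cells, and Kdm6b did not pass the test, and the lines of the groups overlapped for both. In 6 members the groups did not overlap, 3 with the higher values in Myc_Utx (Eed, Suz12 and Rbbp7) and 3 with the lower ones (Ezh1, Mtf2 and Phf19), beside 42.0% of all genes. The median log2 fold change of the 10 was -0.07, against -0.01 over all genes, so the members had no common direction. The calls were not firm to the removal of single lines. Between 0 and 2 members were called higher and 0 or 1 lower when 1 line was left out. Among all genes these fits called 3 to 836 higher and 1 to 1118 lower, against 805 and 885 with all lines. The fits that called 0 members were those with the fewest calls among all genes, so the loss was not particular to the members.

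**Figure D1:**
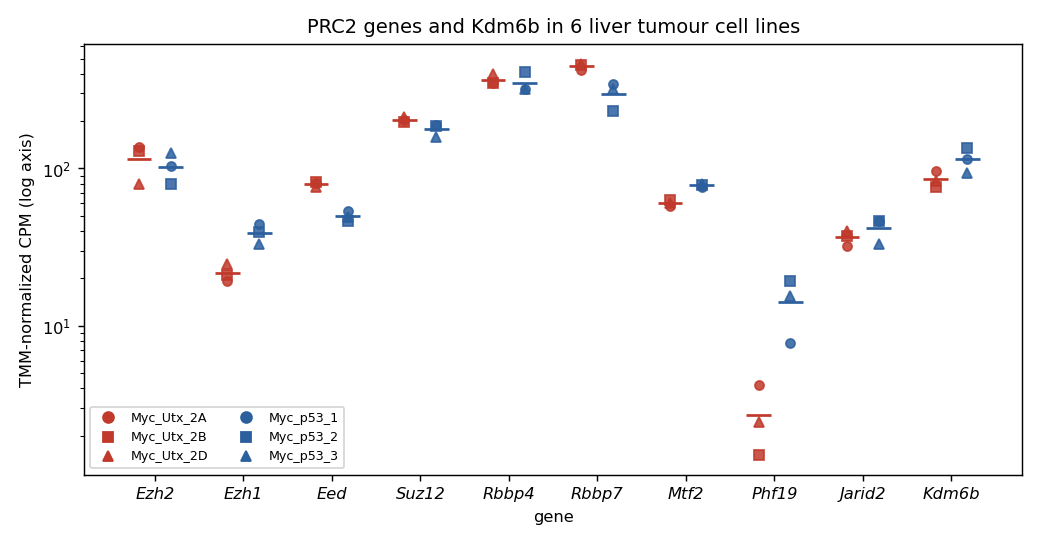
TMM-normalized CPM (log axis) of the 10 genes in each cell line, red for Myc_Utx and blue for Myc_p53, with a different symbol for each line and a bar at the mean of 3 lines. Eed sits higher and Ezh1 and Phf19 lower in all Myc_Utx lines, whereas the lines mix for Ezh2, Rbbp4, Jarid2 and Kdm6b.

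Because Eed, Ezh1 and Phf19 are the members that were called, the bases just before their annotated starts are given here as RefSeq records them (GRCm38.p6). All lie on the minus strand and are written in lower case in the direction of transcription, and capitals mark matches to the searched motifs. The window of Phf19 is chr2:34914027-34914226, that of Eed chr7:89980984-89981226 and that of Ezh1 chr11:101226464-101226713.
Phf19: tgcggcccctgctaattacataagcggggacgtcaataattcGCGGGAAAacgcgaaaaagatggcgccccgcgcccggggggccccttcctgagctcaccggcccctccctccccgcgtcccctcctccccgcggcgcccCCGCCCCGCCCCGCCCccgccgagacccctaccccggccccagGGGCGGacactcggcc
Eed: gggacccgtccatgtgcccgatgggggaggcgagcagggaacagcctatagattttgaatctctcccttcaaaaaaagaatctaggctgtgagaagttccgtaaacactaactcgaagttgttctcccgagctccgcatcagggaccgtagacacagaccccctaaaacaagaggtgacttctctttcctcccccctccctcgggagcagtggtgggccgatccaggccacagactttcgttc
Ezh1: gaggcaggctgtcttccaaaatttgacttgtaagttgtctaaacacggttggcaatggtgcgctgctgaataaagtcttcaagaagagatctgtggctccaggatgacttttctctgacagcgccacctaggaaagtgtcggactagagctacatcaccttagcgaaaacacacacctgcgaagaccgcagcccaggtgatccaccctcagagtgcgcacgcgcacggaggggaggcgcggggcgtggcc
The motifs were the E-box CACGTG, to which Myc binds, the E2F motifs TTTCCCGC and TTTGGCGC and the GC box GGGCGG, read on both strands. In the Phf19 stretch 5 matches were found, 1 of them to an E2F motif and the others GC boxes, 3 of which overlap one another by a base. The stretches of Eed and Ezh1 held 0 matches.

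Promoter windows of 300 bases, 250 before and 50 after the start, were at hand for 9 of the 10 members, in 11 windows. An E2F motif stood in 3 of these 11 windows, those of Phf19, Suz12 and Ezh2, against 1.56% of 32851 windows of mouse genes. The E-box stood in 1, that of Rbbp4, against 7.15% of all windows. A GC box stood in 7 of them, belonging to 6 genes (Phf19, Rbbp4, Mtf2, Suz12, Jarid2 and Rbbp7), against 35.7% of all. The windows of the members are rich in G and C, from 45.7% in one of Mtf2 to 75.7% in that of Rbbp7, and no match was tested against windows of like composition. The genes with an E2F motif shared no direction: Phf19 was called lower, and Suz12 and Ezh2 were not called.

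Ezh2 (ENSMUSG00000029687, chr6:47530139-47595341, GRCm38) was high in some lines of each group. It measured 136, 129 and 79.1 CPM in Myc_Utx lines 2A, 2B and 2D, and 104, 79.9 and 124 CPM in Myc_p53 lines 1, 2 and 3. The lowest values came from Myc_Utx 2D and Myc_p53 2, 1 line of each group, so the spread within groups exceeded the distance between them. The means were 115 ± 31.1 and 103 ± 22.3 CPM (SD, n = 3), with a log2 fold change of 0.16 (SE 0.26, adjusted p = 0.685 by edgeR). Without line 2D the log2 fold change was 0.39 (adjusted p = 0.299), and it was 0.015 without Myc_p53 2 (adjusted p = 0.973).

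Ezh1 (ENSMUSG00000006920, chr11:101191115-101226463), the catalytic subunit typical of resting cells, fell in Myc_Utx. Its level was 19.1, 21 and 24.7 CPM in lines 2A, 2B and 2D and 44.2, 39.5 and 33.2 CPM in Myc_p53 lines 1, 2 and 3, so every Myc_Utx line lay below every Myc_p53 line. The means of 21.6 ± 2.84 and 39.0 ± 5.53 CPM (SD, n = 3) differed by a log2 fold change of -0.85 (SE 0.18, adjusted p = 0.0336), 1.8-fold. The direction held in every fit with 1 line left out (-0.96 to -0.75), while the adjusted p stayed under 0.05 only without Myc_p53 2 (0.0481). It was 0.107 without Myc_Utx 2A, 0.109 without 2B, 0.0879 without 2D, 0.0644 without Myc_p53 1 and 0.0632 without Myc_p53 3. With counts corrected for transcript length in each line, the log2 fold change was -0.72 (adjusted p = 0.0604), and adding GC content gave -0.69 (adjusted p = 0.0672).

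Per kilobase of transcript, Ezh2 made up most of the catalytic subunit mRNA in all 6 lines. Its share of Ezh1 plus Ezh2 was 88.8%, 87.3% and 78.1% in Myc_Utx lines 2A, 2B and 2D and 72.3%, 69.3% and 80.7% in Myc_p53 lines 1, 2 and 3. The means were 84.7% ± 5.79 and 74.1% ± 5.91 (SD, n = 3), and the groups overlapped, since line 2D lay below Myc_p53 3. An exact permutation test of 3 lines against 3 can reach no two-sided p under 0.1, so shares are given without a test.

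Eed (ENSMUSG00000030619, chr7:89954654-89980983), the subunit that reads H3K27me3, was the only member called higher. It measured 80.4, 81.8 and 76.2 CPM in Myc_Utx lines 2A, 2B and 2D and 53.3, 46.5 and 49.2 CPM in Myc_p53 lines 1, 2 and 3. Lines of a group lay close together, with coefficients of variation of 3.71% and 6.83%, and the groups were well apart. The means were 79.5 ± 2.94 and 49.7 ± 3.39 CPM (SD, n = 3), a log2 fold change of 0.68 (SE 0.12, adjusted p = 0.0213) or 1.6-fold. Eed was called in all 8 fits that used the 6 lines, with a log2 fold change of 0.61 to 0.71. Leaving out Myc_Utx 2A, 2B or 2D or Myc_p53 3 brought the adjusted p to 0.0753, 0.0787, 0.0781 and 0.0705, at log2 fold changes of 0.67 to 0.73. The exons of Eed overlap those of the gene E230029C05Rik on the other strand, and 5.82% of the 50-base stretches of Eed occur in other genes, so a small part of its counts may be shared.

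Suz12 (ENSMUSG00000017548, chr11:79993106-80034123), the scaffold of the complex, had 204, 197 and 211 CPM in Myc_Utx lines 2A, 2B and 2D and 188, 185 and 159 CPM in Myc_p53 lines 1, 2 and 3. The groups did not overlap, though the nearest lines differed little. Its log2 fold change of 0.20 (SE 0.11, adjusted p = 0.231) did not pass the test.

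Within each line, the ratio of Eed to Suz12 in CPM per kilobase was 0.508, 0.538 and 0.466 in Myc_Utx lines 2A, 2B and 2D. It was 0.366, 0.325 and 0.400 in Myc_p53 lines 1, 2 and 3. The core subunits thus did not keep 1 ratio of mRNA across the lines. This ratio is corrected for transcript length, but numbers of molecules were not measured.

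Rbbp7 (ENSMUSG00000031353, chrX:162760402-162779092) had 425, 457 and 465 CPM in Myc_Utx lines 2A, 2B and 2D and 344, 231 and 321 CPM in Myc_p53 lines 1, 2 and 3. All Myc_Utx lines were higher, and Myc_p53 2 was the lowest. The log2 fold change of 0.59 (SE 0.16, adjusted p = 0.0580) missed the threshold in edgeR. DESeq2, which called 24.2% of all genes, gave 0.57 with an adjusted p of 0.0126, and edgeR without Myc_p53 2 gave 0.43 with 0.0435.

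Its relative Rbbp4 (ENSMUSG00000057236, chr4:129307100-129335370) had 351, 347 and 399 CPM in Myc_Utx lines 2A, 2B and 2D and 320, 412 and 321 CPM in Myc_p53 lines 1, 2 and 3. The groups overlapped, and the line with the least Rbbp7, Myc_p53 2, had the most Rbbp4. The log2 fold change of Rbbp4 was 0.06 (SE 0.14, adjusted p = 0.786).

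Per kilobase, Rbbp4 was the smaller part of the pair in all lines. Its share of Rbbp4 plus Rbbp7 was 21.6%, 20.2% and 22.2% in Myc_Utx lines 2A, 2B and 2D and 23.6%, 37.2% and 25.0% in Myc_p53 lines 1, 2 and 3. The groups did not overlap, yet Myc_p53 2 carried much of the distance: the difference in mean share, -7.30 percentage points with all lines, was -2.99 points without that line. Both genes share sequence with others, 17.2% of the 50-base stretches of Rbbp4 and 11.2% of those of Rbbp7, and both overlap a gene on the opposite strand.

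Among the accessory subunits, Phf19 (ENSMUSG00000026873, chr2:34893757-34914026) had the largest fold change of the members and the lowest level. Phf19 and Mtf2 are Polycomb-like proteins, alternative subunits that bring PRC2 to chromatin. Phf19 was read by 21, 8 and 11 counts in Myc_Utx lines 2A, 2B and 2D and by 49, 103 and 109 counts in Myc_p53 lines 1, 2 and 3.

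This corresponds to 4.19, 1.5 and 2.45 CPM in Myc_Utx and 7.74, 19.1 and 15.5 CPM in Myc_p53 lines, with no overlap. The means were 2.71 ± 1.36 and 14.1 ± 5.81 CPM (SD, n = 3), a log2 fold change of -2.37 (SE 0.51, adjusted p = 0.0334), 5.18-fold. Lines within a group varied more than for any other member, by 50.3% and 41.1% as coefficients of variation. The adjusted p rose above 0.05 without Myc_Utx 2A (0.0705), 2B (0.0958) or 2D (0.119) and without Myc_p53 2 (0.0570) or 3 (0.0943), while the log2 fold change stayed between -2.81 and -2.06. With at least 10 counts demanded in every line, Phf19 was not tested.

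Mtf2 (ENSMUSG00000029267, chr5:108065674-108109004) had 57.4, 62.7 and 60.1 CPM in Myc_Utx lines 2A, 2B and 2D and 75.9, 79.0 and 79.7 CPM in Myc_p53 lines 1, 2 and 3. The lines of each group were tightly placed and did not overlap. Its log2 fold change of -0.38 (SE 0.11, adjusted p = 0.0630) missed the threshold, and passed it with library totals alone (-0.44, adjusted p = 0.0436) and in DESeq2 (-0.40, adjusted p = 0.0188). The exons of Mtf2 overlap those of Tmed5 on the other strand.

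Mtf2 was the main Polycomb-like transcript of this pair in every line. The share of Phf19 in Phf19 plus Mtf2 per kilobase was 7.62%, 2.63% and 4.4% in Myc_Utx lines 2A, 2B and 2D and 10.3%, 21.5% and 18.1% in Myc_p53 lines 1, 2 and 3. The groups did not overlap, with means of 4.88% ± 2.53 and 16.6% ± 5.70 (SD, n = 3).

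Jarid2 (ENSMUSG00000038518, chr13:44729474-44921643), a subunit of another form of PRC2 that helps recruit it, had 31.9, 37.1 and 40.3 CPM in Myc_Utx lines 2A, 2B and 2D and 46.5, 46.0 and 33.2 CPM in Myc_p53 lines 1, 2 and 3. The groups overlapped, as Myc_p53 3 lay below 2 of the Myc_Utx lines. The log2 fold change was -0.20 (SE 0.19, adjusted p = 0.487), and 0.03 with length and GC content corrected.

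Kdm6b (ENSMUSG00000018476, chr11:69398508-69413675), the demethylase that takes off the mark which PRC2 places, had 96.1, 76.4 and 83.3 CPM in Myc_Utx lines 2A, 2B and 2D and 114, 135 and 93.2 CPM in Myc_p53 lines 1, 2 and 3. Only Myc_Utx 2A and Myc_p53 3 crossed, by a small margin. The means were 85.3 ± 10 and 114 ± 21 CPM (SD, n = 3), with a log2 fold change of -0.42 (SE 0.17, adjusted p = 0.139) that did not pass. It lay between -0.49 and -0.28 in the 8 fits on all 6 lines and between -0.55 and -0.28 with 1 line left out, and was called in none of these.

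Kdm6a, the gene targeted in the Myc_Utx lines, had 39.7, 45.7 and 49 CPM in lines 2A, 2B and 2D and 69.5, 64.5 and 42.5 CPM in Myc_p53 lines 1, 2 and 3. Its mRNA was present in all lines and the groups overlapped (log2 fold change -0.39, SE 0.22, adjusted p = 0.243). Guide-directed cuts leave small insertions or deletions that need not remove the transcript, so this level does not check the labels. The Y-linked Uty, the third member of the family, had 0 counts in every line, which allows up to 3 counts per library.

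Kdm6b was the larger part of the pair with Kdm6a in all lines. Its share per kilobase was 74.5%, 66.8% and 67.2% in Myc_Utx lines 2A, 2B and 2D and 66.5%, 71.7% and 72.6% in Myc_p53 lines 1, 2 and 3. The means, 69.5% ± 4.31 and 70.2% ± 3.30 (SD, n = 3), lay closer than the spread of either group.

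**Figure D2:**
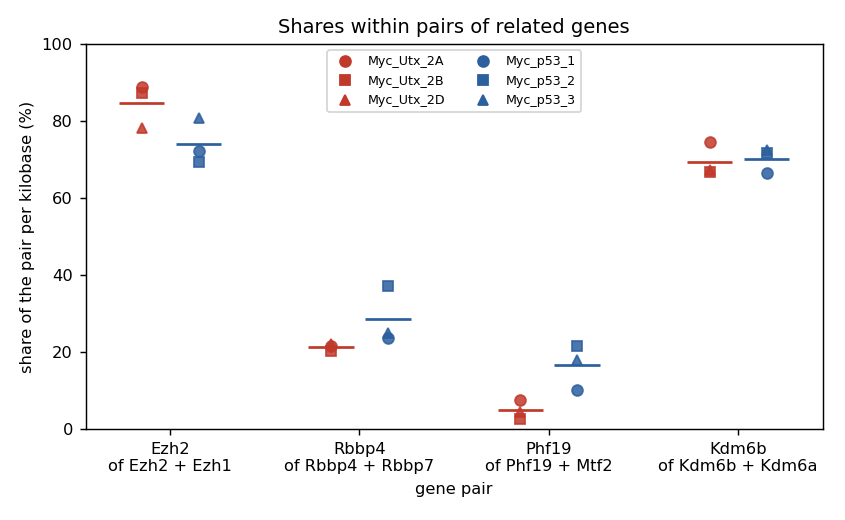
Share (%) of the first gene in 4 pairs of related genes, from CPM per kilobase of transcript, in each Myc_Utx (red) and Myc_p53 (blue) line, with bars at the means. The share of Phf19 lies between 2.63% and 7.62% in Myc_Utx and between 10.3% and 21.5% in Myc_p53 lines, and the share of Kdm6b overlaps between the groups.

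The mRNA of the opposing enzymes was also set against each other within lines. The ratio of Ezh2 to Kdm6b in CPM per kilobase was 1.48, 1.76 and 0.988 in Myc_Utx lines 2A, 2B and 2D. It was 0.943, 0.615 and 1.39 in Myc_p53 lines 1, 2 and 3, and overlapped. On the same per-kilobase scale, the ratio of Eed to Kdm6b was 1.52, 1.95 and 1.66 in the Myc_Utx lines. In the Myc_p53 lines it was 0.847, 0.625 and 0.958, with no overlap. The first ratio followed the line, high also in Myc_p53 3, and the second the group.

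**Figure D3:**
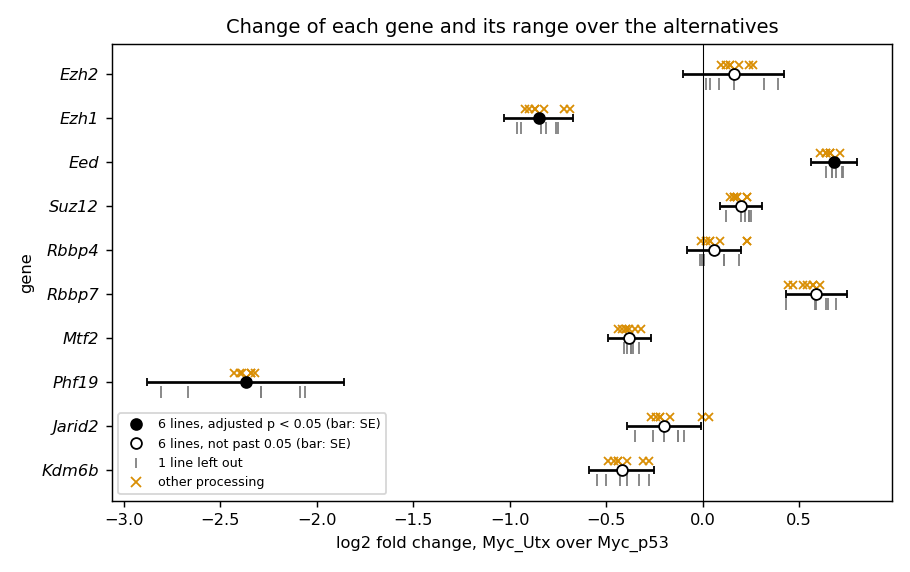
Log2 fold change of each gene, Myc_Utx over Myc_p53, from all 6 lines (circle with its SE, filled at an adjusted p under 0.05), with each line left out (grey ticks) and under the other processing settings (crosses). Eed stays above 0 and Ezh1 and Phf19 below 0 throughout, while Rbbp4 and Jarid2 cross 0.

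Levels of the members relative to one another were read per kilobase of transcript, as the mean over the 6 lines. Rbbp7 was the most abundant with 128 CPM per kilobase (79.5 to 160), and Rbbp4 (41.0, from 36.6 to 47.1) and Suz12 (38.6, from 32.1 to 42.7) followed with ranges that overlapped each other. Eed, Ezh2, Kdm6b and Mtf2 lay below these, in an order that differed between the groups. Their means were 20.8, 17.2, 12.3 and 10.5 CPM per kilobase in Myc_Utx and 13.0, 15.4, 16.4 and 13.7 in Myc_p53 lines, so that Eed had the highest mean of the 4 in the first group and the lowest in the second. In Myc_p53 the ranges of Eed (12.2 to 13.9), Ezh2 (12 to 18.6), Kdm6b (13.4 to 19.5) and Mtf2 (13.3 to 14) overlapped. Ezh1 lay below Jarid2 in each Myc_Utx line (means 2.9 and 3.75) and above it in each Myc_p53 line (means 5.24 and 4.31). Phf19 was lowest, with means of 0.538 and 2.8. The mRNA of Rbbp7, which serves several complexes, thus far exceeded that of the subunits that belong to PRC2 alone.

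Further PRC2 accessory genes were described from a list of 6, of which 5 were tested, 2 called higher and 1 lower, with a median log2 fold change of -0.10. Of all genes tested, 14.7% were called. Aebp2, a partner of Jarid2 in the complex, rose from 131, 105 and 144 CPM in Myc_p53 to 268, 296 and 191 CPM in Myc_Utx lines (log2 fold change 0.99, SE 0.20, adjusted p = 0.0292). Epop, which occurs with Polycomb-like subunits, rose from 34.6, 21.9 and 35.9 to 57.6, 63.3 and 69.3 CPM (1.04, SE 0.22, adjusted p = 0.0320). Lcor, the gene whose locus also encodes the PRC2-associated protein PALI1, fell from 62.3, 32.1 and 76.1 to 15.2, 18.2 and 15.1 CPM (-1.81, SE 0.33, adjusted p = 0.0237). None of the 3 overlapped between the groups, which held for 42.0% of all genes tested. The accessory genes called thus moved in both directions. Phf1 and Lcorl were not called, and the PRC2 inhibitor Ezhip had 0 counts in all lines, which allows up to 3 per library. With 1 line left out, 0 genes of this list were called without Myc_Utx 2A, 2B or 2D or without Myc_p53 3, and 1 without Myc_p53 1. Calls over all genes were also fewest without Myc_Utx 2A, 2B or 2D or Myc_p53 3. With transcript length corrected, 1 was called higher and 1 lower.

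PRC1, the complex that ubiquitinates histone H2A and binds H3K27me3 through its Cbx proteins, was followed by 22 genes, all tested, with 3 higher, 2 lower and a median log2 fold change of 0.03. Among all genes tested 14.7% were called. Phc3, a Polyhomeotic subunit, fell from 115, 111 and 118 to 65.2, 61.0 and 56.6 CPM (-0.91, SE 0.11, adjusted p = 0.0141). Scmh1, a Polycomb protein of the Scm family, rose from 12, 14.6 and 10.8 to 50.9, 44.0 and 32.1 CPM (1.76, SE 0.23, adjusted p = 0.0164). Cbx7, a reader of H3K27me3, fell from 44.6, 18.7 and 32.2 to 8.18, 13.3 and 10 CPM (-1.60, SE 0.37, adjusted p = 0.0379). As in PRC2, single subunits moved without a common direction. No PRC1 gene was called without Myc_Utx 2A or 2B or without Myc_p53 3, and 1 without Myc_Utx 2D and 2 without Myc_p53 1. Over all genes, 3 were called higher and 1 lower without Myc_Utx 2A, and 43 and 38 without 2B. The numbers were 43 and 28 without 2D and 63 and 57 without Myc_p53 3. Of 4 genes of the H2A deubiquitinase that opposes PRC1, 3 were tested, all with negative log2 fold changes and a median of -0.48. edgeR called 0 of them, with 2 lower at an unadjusted p under 0.05, and DESeq2 called 1 lower. With transcript length corrected 0 were lower at an unadjusted p under 0.05 (median -0.35), and without Myc_p53 2 the median was -0.26.

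Enzymes of marks that oppose H3K27 methylation, the acetyltransferases of the same residue and the methyltransferases of lysine 36, had 7 genes, all tested. All 7 had negative log2 fold changes, with a median of -0.60, and 3 fell: Nsd3 (-0.60, SE 0.10, adjusted p = 0.0194), Ash1l (-0.61, SE 0.10, adjusted p = 0.0195) and Nsd1 (-0.75, SE 0.18, adjusted p = 0.0414), all of them lysine 36 methyltransferases. No gene of this list was higher even at an unadjusted p under 0.05. Among all genes tested 7.69% were called lower. Of the 14 other JmjC histone demethylases, all tested, 3 fell, Jmjd1c (-0.77, SE 0.16, adjusted p = 0.0287), Kdm5a (-0.50, SE 0.11, adjusted p = 0.0340) and Kdm2a (-0.74, SE 0.17, adjusted p = 0.0363), with a median of -0.06, and 0 rose by edgeR or DESeq2 or at an unadjusted p under 0.05. With transcript length corrected in each line, edgeR called 0 genes of either list and the medians were -0.31 and 0.12. At an unadjusted p under 0.05 that fit had 2 genes of the first list lower and, of the second, 2 higher and 2 lower. Across all genes longer transcripts had lower log2 fold changes, with a Spearman's rho of -0.249 over 11510 genes that are not independent of each other. No gene of either list was called without Myc_Utx 2A, 2B or 2D or without Myc_p53 3, the fits with the fewest calls over all genes.

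**Figure D4:**
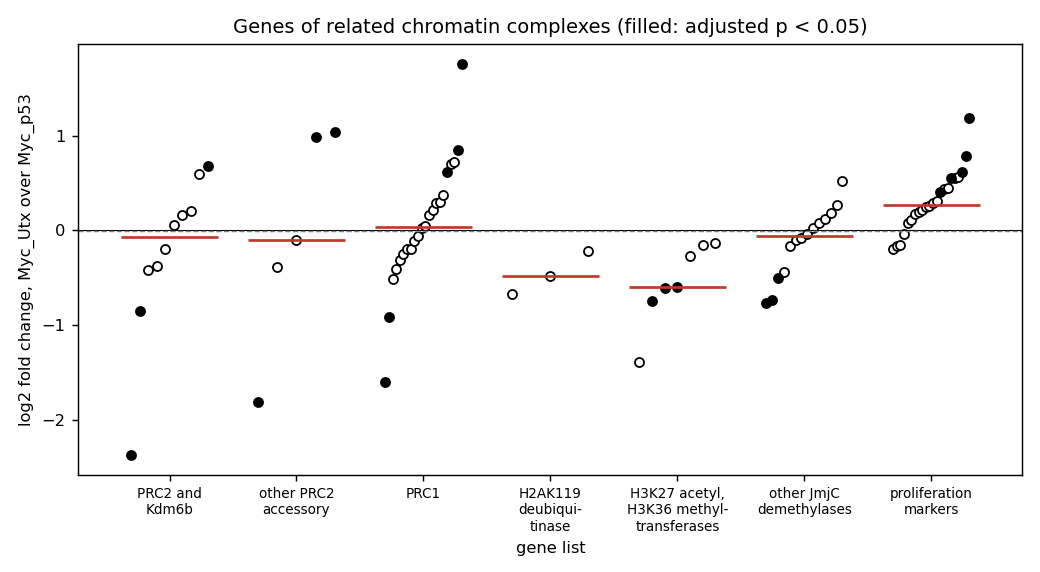
Log2 fold change, Myc_Utx over Myc_p53, of each tested gene in 7 lists, sorted by value within a list, filled at an adjusted p under 0.05, with a red bar at each list's median and a dashed line at the median of all genes. PRC2 and PRC1 genes lie on both sides of 0, while all 7 acetyltransferase and lysine 36 methyltransferase genes lie below it.

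Since Ezh2 is typical of dividing cells, 22 proliferation markers were read beside it, all tested, of which 5 rose and 18 had positive log2 fold changes, with a median of 0.27. At an unadjusted p under 0.05, 12 were higher and 0 lower, and DESeq2 called 9 higher and 0 lower. Of all 11510 genes, edgeR called 6.99% higher, and 1916 were higher and 2110 lower at an unadjusted p under 0.05. DESeq2 called 24.2% of all genes in either direction. Rrm2, a subunit of ribonucleotide reductase, had 391.9, 390 and 425 CPM in Myc_Utx and 179, 160 and 189 CPM in Myc_p53 lines (1.19, SE 0.11, adjusted p = 0.0103). The mitotic kinase Plk1 (0.78, SE 0.12, adjusted p = 0.0171) and the replication helicase subunit Mcm5 (0.62, SE 0.12, adjusted p = 0.0274) also rose. Mki67 (0.55, SE 0.16, adjusted p = 0.0662) and Top2a (-0.20, SE 0.14, adjusted p = 0.352) did not pass. The number of calls was 0 without Myc_Utx 2A, 1 without 2B or 2D or Myc_p53 3, and 2 without Myc_p53 1. Leaving out Myc_Utx 2A, 2B or 2D or Myc_p53 3 also gave the fewest calls over all genes.

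Ezh2 and Mki67 parted in 1 line. Myc_Utx 2D had 814 CPM of Mki67, second to the 872 CPM of line 2A, and yet the lowest Ezh2 of all 6 lines. The ratio of Ezh2 to Mki67 in CPM per kilobase was 0.235, 0.265 and 0.146 in Myc_Utx lines 2A, 2B and 2D. It was 0.240, 0.270 and 0.334 in Myc_p53 lines 1, 2 and 3. Line 2D thus stood alone with the lowest ratio, and the other 5 lay between 0.235 and 0.334. Within Myc_p53, line 2 was the lowest for Ezh2 and Mki67. Top2a went the other way there, with 969.4 CPM in line 2 against 727.7 and 802.5 CPM in lines 1 and 3.

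The genes whose log2 CPM followed Ezh2 most closely over the 6 lines, out of the 9485 tested genes whose counts averaged 50 or more, were Phc2 (Pearson's r = 0.989), Ctsd (0.977) and Coro2a (0.973). Phc2, a Polyhomeotic subunit of PRC1, had 160, 167 and 72.6 CPM in Myc_Utx lines 2A, 2B and 2D and 116, 74.1 and 137 CPM in Myc_p53 lines 1, 2 and 3, low in the same 2 lines as Ezh2. Coro2a was down to 3 counts in one line. For Kdm6b the closest were Chmp7 (0.997), Yeats2 (0.991) and Med23 (0.988), all lowest in Myc_Utx 2B or 2D and highest in Myc_p53 2. These values, each the highest of 9485 over only 6 lines, are a description, and no p is given.

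**Figure D5:**
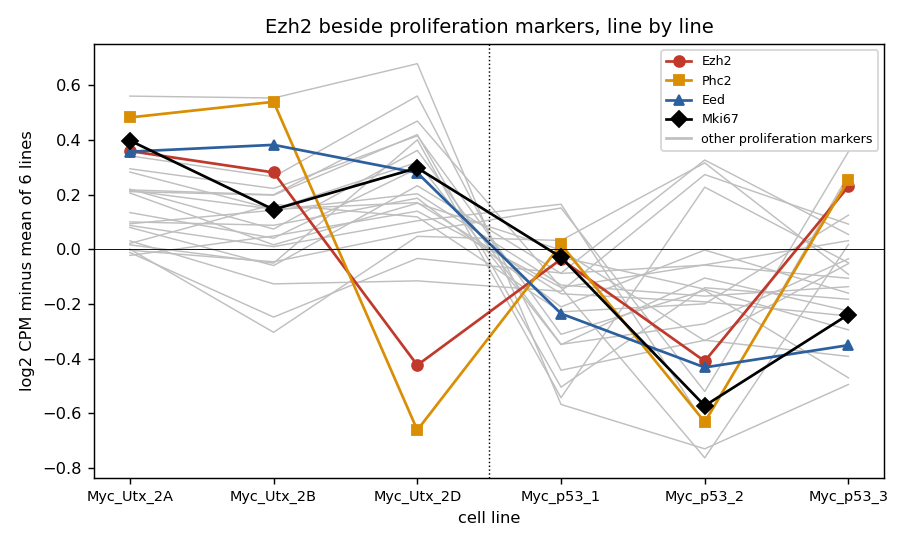
Log2 CPM of each gene in each line minus its mean over the 6 lines, for Ezh2, Phc2, Eed and Mki67 in colour or black and the other proliferation markers in grey. The lines drawn only join the values of 1 gene. Ezh2 and Phc2 are low in Myc_Utx 2D and Myc_p53 2, whereas Eed is above its mean in all Myc_Utx lines and below it in all Myc_p53 lines.

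Developmental genes known to carry H3K27me3 in many cell types were mostly too low to test. Of 24 such genes, 7 were tested. At most 3 counts were found in every Myc_Utx line for 13 of them, and in every line of both groups for 8. With edgeR 1 fell and 0 rose (0 higher and 2 lower at an unadjusted p under 0.05), and DESeq2 called 2 lower. The gene that fell was Bmp2, a secreted growth factor, with 5, 5 and 4 counts in Myc_Utx and 24, 28 and 16 counts in Myc_p53 lines (-1.96, SE 0.43, adjusted p = 0.0344). With at least 10 counts demanded in every line, Bmp2 was not tested. It lost its call when no filter was used, and without any 1 of Myc_Utx 2A, 2B and 2D or Myc_p53 3. Leaving out any of these lines also left few calls over all genes.

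The cells were checked against markers. Of 12 hepatocyte markers 4 were tested, and levels differed from gene to gene: albumin, the main protein of hepatocytes, had between 0.891 and 4.87 CPM, while Cebpa, a transcription factor of hepatocytes and some other cells, had 28.9 to 100.4 CPM in Myc_Utx and 12.7 to 62.5 CPM in Myc_p53 lines. The fibrinogen chain Fgb had 2.19, 1.12 and 44.3 CPM in Myc_Utx lines 2A, 2B and 2D and 14.8 to 25.3 CPM in Myc_p53 lines, and Apob, the only marker of this list called, had at most 1.12 CPM in Myc_Utx and 13.2 to 53.9 CPM in Myc_p53 lines. Of 10 macrophage and leukocyte markers, 7 were tested and 6 fell, and their summed level was 2.79 to 5.99 CPM in Myc_Utx and 42.6 to 114 CPM in Myc_p53 lines. The defining markers Ptprc and Adgre1 had 0 counts in all Myc_Utx lines and at most 3 and 11 counts in Myc_p53 lines, while Csf1r had 0, 1 and 0 counts against 259, 39 and 243. These markers were thus lowest where Phf19 and Ezh1 were lowest and Eed highest, as groups, and their part in those results was not tested. Within Myc_p53, line 2 had the lowest sum of these markers (42.6 CPM) and the highest Phf19 (19.1 CPM). Of 10 fibroblast and stellate markers 6 were tested (median log2 fold change -1.33), and edgeR called 0 of them (0 also at an unadjusted p under 0.05), as did DESeq2. Their sum was 1953 to 2693 CPM in Myc_Utx lines and 42, 3170 and 721.8 CPM in Myc_p53 lines 1, 2 and 3. It was mostly Col3a1 in Myc_Utx lines 2A, 2B and 2D (1731, 2301 and 2558 CPM) and in Myc_p53 2 (2721 CPM). In Myc_p53 1 and 3, Col3a1 had only 10.3 and 73.9 CPM. Pdgfrb, like Col3a1, had a higher mean in Myc_Utx (187 against 94.0 CPM). Other members had higher means in Myc_p53, among them Col1a1 (24.6 against 128 CPM) and Acta2 (12.9 against 82.1 CPM). Of 4 cholangiocyte and progenitor markers tested edgeR called 0, with 1 higher and 1 lower at an unadjusted p under 0.05, and DESeq2 called 1 lower. The 6 endothelial markers were all too low to test.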

How the data were processed

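Total RNA of 6 cell lines was sequenced after standard Illumina library preparation. The authors deposited unnormalized counts of reads for each Ensembl gene, beside gene annotation with a transcript length in bases, which equals the summed exon length of GENCODE M21 for 95.3% of genes. The submitters' processing notes name Trimmomatic 0.36, STAR 2.5.3a, featureCounts 1.6.3 and DESeq2 1.20.0 with GRCm38 and mm10, whereas the paper's methods name HTSeq, a human build and another knockout. The read length and whether counting used strand are not given in the sources used here, so genes that overlap on opposite strands cannot be separated.

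The genotype label set the group of each line. Counts were analysed with edgeR 4.0.16 under R 4.3.3. Genes passed a filter by filterByExpr (minimum count 10), libraries were normalized by TMM, and groups were compared by the quasi-likelihood F test with Benjamini-Hochberg adjustment over 11510 genes. The SE was taken as the absolute log2 fold change over the root of the F statistic. Totals of 4656103 to 6937497 counts per line limit the precision most for Phf19. Alternatives were no filter, at least 10 counts in every line, DESeq2 size factors, library totals only, offsets for transcript length without or with GC content (robust regression in MASS 7.3.60.0.1 on splines with 5 degrees of freedom), DESeq2 1.42.0, and leaving out each line. The script was tested on simulated data.

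All members are named. Of each other list, at most the 3 called genes with the lowest adjusted p are named, with Kdm6a, Uty, Mki67 and Top2a always, and the 3 genes most like Ezh2 and Kdm6b. A few further genes (Ptprc, Adgre1, albumin, Cebpa, Fgb, Col3a1, Pdgfrb, Col1a1, Acta2, Phf1, Lcorl, Ezhip and Ep300) were named after their values were seen. The members and lists were chosen with earlier results of these data known, and no list was tested as a set. Promoter windows come from RefSeq (GRCm38.p6). Protein levels and histone marks were not analysed here.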

Additional observations from a re-analysis of the deposited data

How the results depend on the processing

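Eed kept its direction and its call in all 8 fits on 6 lines, and no member other than Rbbp4 and Jarid2 changed direction in any fit. Rbbp4 turned to -0.006 with library totals only, -0.012 without Myc_p53 1 and -0.0055 without Myc_p53 3, and Jarid2 to 0.035 with length and GC corrected, all far from a call. Ezh1 lost its call with no filter (-0.82, adjusted p = 0.0553) and with length (-0.72) or length and GC offsets (-0.69). Rbbp7 passed with DESeq2 (0.57) and Mtf2 with DESeq2 (-0.40) and library totals only (-0.44). DESeq2 called 2 members higher and, over all genes, 1268 higher and 1514 lower. The members called lower numbered 1 with no filter, with at least 10 counts in every line, and with length or length and GC offsets. Among the lists, length and length and GC offsets gave medians of 0.21 and 0.18 for the other PRC2 accessory genes, -0.31 and -0.27 for the acetyltransferases and lysine 36 methyltransferases (0 called in both), 0.12 and 0.099 for the JmjC demethylases (0 called in both) and 0.20 in both for the proliferation markers. Library totals only gave 3 called and a median of 0.21 for the proliferation markers, whose calls were 3 with at least 10 counts and 9 with DESeq2. PRC1 had 2 called with length and GC offsets and the deubiquitinase genes 1 with DESeq2. The developmental genes had 0 called with no filter (median -1.93) or at least 10 counts, and 2 with DESeq2. Phf19 and Bmp2 were not tested with at least 10 counts in every line, and for the other moves the cause was not tested. No filter and library totals only moved the median of all genes to -0.23 and -0.08.

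With 1 line left out, genes called higher over all genes numbered 3 to 836 and lower 1 to 1118, members higher 0 to 2 and lower 0 to 1. Log2 fold changes ran from -0.96 to -0.75 for Ezh1, 0.64 to 0.73 for Eed, -2.81 to -2.06 for Phf19, 0.43 to 0.69 for Rbbp7 and -0.012 to 0.19 for Rbbp4. Calls ran from 0 to 3 in the other PRC2 accessory genes (median -0.21 to 0.25), 0 to 4 in PRC1, 0 to 3 in the acetyltransferases and lysine 36 methyltransferases, 0 to 2 in the JmjC demethylases (median -0.20 to 0.055), 0 to 5 in the proliferation markers and 0 to 1 in the developmental genes (median -1.99 to 0.85). No paired analysis was possible because the labels number the lines of the groups in different ways and share no replicate number.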

Other observations

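Ep300, an acetyltransferase of the residue that PRC2 methylates, had 151, 142 and 140 CPM in Myc_Utx lines 2A, 2B and 2D and 208, 714 and 214 CPM in Myc_p53 lines 1, 2 and 3. Myc_p53 2 thus stood far from the other 5 lines, and the log2 fold change of -1.39 (SE 0.50, adjusted p = 0.103 by edgeR) was not called. The same line had the lowest Rbbp7 (231 CPM), the highest Rbbp4 (412 CPM), the highest Phf19 (19.1 CPM) and the highest Kdm6b (135 CPM) of the 6. These genes were singled out after their values were seen.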
